A study of Mus musculus with 36 samples.

Results

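The transcripts described here are the 266 processed pseudogenes with counts in C2C12 myotubes, that is, every row that the deposited gene table annotates as processed_pseudogene and that reached at least 1 CPM (counts per library scaled to a common total) in at least 12 of 36 libraries. They were 266 of the 10000 processed pseudogenes in the table, of which 3959 had no count in any library, and of the 13995 genes of all kinds that passed the same filter. The rule used the level alone and no comparison between groups. Processed pseudogenes are copies of messenger RNAs that were reverse transcribed and inserted back into the genome, so they carry the exon sequence of a parent gene without its introns and usually without its promoter. Most are silent, and a copy is transcribed mainly where it landed inside, beside or downstream of an active promoter. Genes with abundant messages in the germ line, such as those for ribosomal proteins, glycolytic enzymes and chaperones, have left the most copies. Because a young copy differs from its parent at few bases, short reads from one can be assigned to the other.

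The libraries came from C2C12 myotubes, a mouse myoblast line that fuses into contractile myotubes, at day 4 of differentiation. All 36 cultures had been transfected for 24 h with a locked nucleic acid (LNA) antisense oligonucleotide, either a negative control or one against Tug1, a long noncoding RNA. Cells were left at rest (Rest), harvested directly after 3 h of electrical pulse stimulation (EPS 0h), which makes the myotubes contract, or harvested 3 h after the stimulation ended (EPS 3h). This gave the groups Rest control, EPS 0h control, EPS 3h control, Rest Tug1 KD, EPS 0h Tug1 KD and EPS 3h Tug1 KD, with n = 6 libraries each, and the wells came from 2 independent experiments that the sample labels do not assign. All groups share 1 cell line, the transfection and, per the methods, poly-A selection, so the p-values measure the spread between wells. The oligonucleotide lowers Tug1 and does not remove it: Tug1 stood at 48.3 ± 6.77 CPM (SD, n = 6) in Rest control and 27.2 ± 3.68 CPM in Rest Tug1 KD. It was 67.3 ± 10.98 CPM in EPS 0h control and 45.4 ± 11.98 CPM in EPS 0h Tug1 KD. At EPS 3h it was 81.1 ± 19.5 CPM in control and 56.8 ± 16.4 CPM in Tug1 KD. The mean in EPS 3h Tug1 KD was thus above that in Rest control. The bearing of these levels on the knockdown and interaction results after EPS was not tested.

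The libraries held 17005079 to 24181167 counts on genes. The EPS labels matched the mean levels of Hspa1a, a stress-induced chaperone, at 172, 1513 and 5373 CPM in the Rest, EPS 0h and EPS 3h control groups. The myotube markers Myog, Ckm, Acta1, Myh3, Myh8, Ttn, Des and Tnnt3 were all present, with group means of at least 194 CPM. Of the markers of other cell types reported here, Ptprc, Pecam1, Adipoq and Epcam were under 1 CPM in both Rest groups and had higher means at EPS 3h. Epcam, an epithelial adhesion molecule, went from 0.0149 CPM in Rest control to 3.72 CPM at EPS 3h, while Krt14 went from 8.86 to 5.51 CPM. Their part in the pseudogene changes below was not tested, and in these bulk libraries fewer cells of a kind and less RNA per cell cannot be told apart.

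A parent could be read from the name of 69 members, such as Hspd1-ps3. Matching each member's exon sequence to mouse protein-coding transcripts gave a parent for 258 members, from 209 different genes, and the name and the sequence pointed to the same gene in 67 of 69. The exceptions were Matr3-ps2, whose match covered under 50% of its length, and Rps7-ps2, whose best match was Odc1. Ribosomal protein genes were the parents of 79 members, cytoskeletal genes of 11, chaperone genes of 9, high-mobility-group genes of 9, translation factor genes of 8, RNA-binding protein genes of 7, respiratory chain genes of 6, ubiquitin and proteasome genes of 5 and glycolytic genes of 4. Members of 1 family can share a parent: Rps2 had 6 copies and Hmgb1 had 5. The median identity to the best match was 98.7%. Identity was at least 99% in 113 members, 95 to 99% in 92 and under 95% in 53, and 172 members held an unbroken identical run at least as long as a sequencing read of 150 bases. How such reads were counted is not given in the sources used here, so the levels of near-identical members are uncertain.

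The range of divergence is shown by pairs that the results below turn on. Each line is a stretch of 120 bases, 5′ to 3′ in GRCm39, chosen as the coding window with the most differences between the copies, and capitals mark the bases that differ. Gm15459 (chr5:5833436-5833555, minus strand) had the most counts of any member and differs from the start of the Hspa8 coding sequence (chr9:40713219-40713338, plus strand) at 1 base.
Gm15459: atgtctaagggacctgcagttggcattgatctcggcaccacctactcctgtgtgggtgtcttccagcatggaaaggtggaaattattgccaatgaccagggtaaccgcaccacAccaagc
Hspa8: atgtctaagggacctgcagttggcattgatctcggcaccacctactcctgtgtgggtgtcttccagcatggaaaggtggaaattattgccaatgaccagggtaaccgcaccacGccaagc
Hspd1-ps3 (chr11:41390713-41390832, plus strand) followed its parent Hspd1 (chr1:55118336-55119326, minus strand, 2 exons joined) and differs at 4 bases.
Hspd1-ps3: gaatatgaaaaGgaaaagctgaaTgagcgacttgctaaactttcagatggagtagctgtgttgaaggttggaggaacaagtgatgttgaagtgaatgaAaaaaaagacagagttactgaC
Hspd1: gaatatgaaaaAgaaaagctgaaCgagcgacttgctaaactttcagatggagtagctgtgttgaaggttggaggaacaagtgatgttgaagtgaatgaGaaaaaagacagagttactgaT
Gm5566 (chr5:149584564-149584683, minus strand) had the largest rise at EPS 3h and differs from Nme2 (chr11:93846322-93846441, minus strand) at 7 bases.
Gm5566: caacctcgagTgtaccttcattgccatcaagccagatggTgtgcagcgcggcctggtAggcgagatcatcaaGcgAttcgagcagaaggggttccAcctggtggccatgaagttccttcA
Nme2: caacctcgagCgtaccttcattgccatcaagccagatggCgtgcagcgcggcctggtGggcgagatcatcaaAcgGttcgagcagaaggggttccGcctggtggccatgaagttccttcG
Gm5781 (chr10:116808910-116809029, minus strand) rose while Rps15 (chr10:80128687-80129587, plus strand, 2 exons joined) did not, and differs at 10 bases.
Gm5781: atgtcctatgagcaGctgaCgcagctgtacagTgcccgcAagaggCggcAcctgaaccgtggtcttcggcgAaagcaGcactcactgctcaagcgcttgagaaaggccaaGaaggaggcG
Rps15: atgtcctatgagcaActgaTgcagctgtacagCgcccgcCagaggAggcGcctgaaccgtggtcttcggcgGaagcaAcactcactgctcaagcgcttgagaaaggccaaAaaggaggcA
Gm7002 (chr12:35824189-35824308, plus strand) is a more diverged copy of Hsp90ab1 (chr17:45880258-45880459, minus strand, 2 exons joined) and differs at 27 bases.
Gm7002: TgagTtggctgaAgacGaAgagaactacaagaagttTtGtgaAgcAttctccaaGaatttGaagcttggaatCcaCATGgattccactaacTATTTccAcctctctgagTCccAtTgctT
Hsp90ab1: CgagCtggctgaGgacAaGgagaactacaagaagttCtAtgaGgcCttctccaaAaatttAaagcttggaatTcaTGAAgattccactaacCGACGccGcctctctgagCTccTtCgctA

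Most members were weakly covered. The median of the mean levels over 36 libraries was 2.297 CPM, 120 of 266 stayed under 2 CPM and 25 reached at least 20 CPM. The 5 members with the most counts held 61.2% of the summed CPM of all members. Per kilobase of exon, the order was led by Mylf-ps, a copy of the myosin light chain gene Myl1, at 1147 CPM per kb, Gm10736 at 978, Gm15772, a copy of Rpl26, at 795, Gm15459 at 731, Gm13394, a copy of the glycolytic gene Gapdh, at 351 and Rps3a3, a copy of Rps3a1, at 339. Gm10736 is 78 bases long and could be assigned no parent, since a parent by sequence required at least 100 aligned bases. Its best match among coding transcripts was 100% identical over the aligned bases. Gm10123 is identical to the Ppia transcript over all of its 490 bases.

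Members were usually below their parents. The median member stood at 13.2% of its parent's level per kilobase of annotated exon, and the median was 22.2% in members of at least 99% identity, 11.4% in those of 95 to 99% and 12.99% in those under 95%. The parent's length here joins all of its annotated exons, such as 4156 bases for Rpl26 and 7160 for Gapdh. This can lower parent levels per kilobase and raise these percentages. In 17 of 258 pairs the member had more CPM than its parent. Gm15772 stood at 348 CPM (795 CPM per kb) and Rpl26, which is 99.5% identical to it, at 24.2 CPM (5.83 CPM per kb). Rps3a3 stood at 269.8 CPM (339 CPM per kb) and Rps3a1 at 209 CPM (182 CPM per kb).

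All members together took a small share of the counts, and the mean share was higher after EPS. It was 0.430% ± 0.0443 (SD, n = 6) in Rest control, 0.479% ± 0.0128 at EPS 0h, and it reached 0.536% ± 0.0566 at EPS 3h. In Tug1 KD it was 0.410% ± 0.0260, 0.455% ± 0.0297 and 0.488% ± 0.0329. The rise in control came mainly from replicates 1 to 3, with means of 0.391% at Rest and 0.578% at EPS 3h, against 0.469% and 0.494% in replicates 4 to 6, where the Rest and EPS 3h ranges overlapped. Without Gm15459, the member with the most counts, the mean share over all 6 libraries was 0.312% at Rest and 0.354% at EPS 3h. The sums also hold 30 members that reached 1 CPM in no Rest library. The level filter selected these for higher levels after EPS, and no share without them is given here. Gm15459 rose from 1105 ± 147 CPM at Rest to 1454 ± 82.5 CPM at EPS 0h and 1925 ± 259 CPM at EPS 3h. These CPM, unlike the shares, use library totals adjusted by the scaling factors of the fit.

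The first comparison asks which pseudogenes changed with simulated exercise in control myotubes. At EPS 0h against Rest, 65 of 266 members rose (24.4%; all tested genes 20.5%) and 15 fell (5.64%; all tested genes 18.4%), by edgeR's quasi-likelihood test with a false discovery rate (FDR) under 0.05 over all 13995 genes. At EPS 3h, 87 rose (32.7%; all tested genes 26.1%) and 16 fell (6.01%; all tested genes 25.9%). The median log2 fold change of the members was 0.14 at EPS 0h and 0.26 at EPS 3h, against -0.03 and -0.02 over all tested genes. Scaling by library size alone moved the median of all genes to -0.19 at EPS 3h, and 69 members rose (all tested genes 19.1%) and 26 fell (all tested genes 39.6%). The median of the members exceeded that of all genes by 0.28 under both scalings. Replicates 1 to 3 alone gave 106 rises (all tested genes 25.3%), 16 falls (all tested genes 23.6%) and a median of 0.39 at EPS 3h. Replicates 4 to 6 alone gave 66 rises, which is 24.8% of the members and near the 25.1% of all tested genes, 11 falls (all tested genes 23.6%) and a median of 0.10.

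The excess of rises over all tested genes included members that passed the level filter through the stimulated libraries. 30 members reached 1 CPM in none of the 12 Rest libraries, so they had to be higher after EPS to be counted at all, and 29 of them rose at EPS 0h and 30 at EPS 3h. Among the 224 members with at least 1 CPM in at least 4 of the 12 Rest libraries, 32 rose (14.3%) and 15 fell (6.696%) at EPS 0h, and 49 rose (21.9%) and 16 fell (7.14%) at EPS 3h. The same restriction was not applied to all tested genes, so these shares have no matching share beside them. Other tested genes under 2 CPM, the level of 120 members, also rose more often than they fell at EPS 3h (37.9% and 19.1% of 1666), while members under 2 CPM rose in 40 and fell in 11 of 120 cases.

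**Figure D1:**
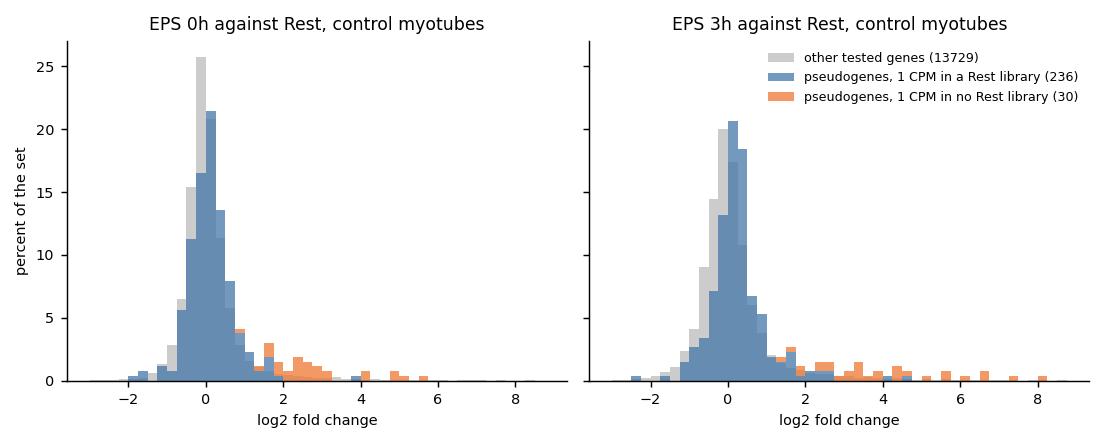
Distribution of log2 fold changes for EPS 0h (left) and EPS 3h (right) against Rest in control myotubes, as the percent of each set in bins of 0.25. Grey bars are the 13729 other tested genes, and blue and orange bars are the 266 pseudogenes, stacked, with the 30 that reached 1 CPM in no Rest library in orange. The orange pseudogenes form most of the right tail.

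The largest rise at EPS 3h was that of Gm5566, a 459-base copy of Nme2, which encodes a nucleoside diphosphate kinase. Its levels were 0.0848 to 0.351 CPM (median 0.186) in Rest control, 2.59 to 11.97 CPM (median 6.26) at EPS 0h and 29.03 to 65.6 CPM (median 58.8) at EPS 3h. The 3 groups did not overlap. Gm5566 reached 1 CPM in no Rest control library, so the level filter selected it for higher levels in other groups. Its test values and the lack of overlap describe the size of the rise only. Its log2 fold change was 5.12 ± 0.49 (SE, FDR = 3.3e-10) at EPS 0h and 8.01 ± 0.47 (SE, FDR = 6.9e-16) at EPS 3h, and it also rose between EPS 0h and EPS 3h, by 2.89 ± 0.32 (SE, FDR = 2.6e-08). The parent Nme2 changed by 0.24 ± 0.21 (SE, FDR = 0.37) and 1.35 ± 0.20 (SE, FDR = 8.5e-07) in the same comparisons. The log2 ratio of Gm5566 to Nme2 per library, with 0.5 CPM added to each, went from -2.24 ± 0.18 (SD, n = 6) at Rest to 2.73 ± 0.59 at EPS 3h. The nearest tested gene to Gm5566, on the other strand at 11897 bases, was Gm20005, which changed by 5.50 at EPS 3h.

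Gm5781, a copy of Rps15, a protein of the small ribosomal subunit, followed the same order of groups. It ranged over 0.0848 to 0.783 CPM (median 0.266) at Rest, 6.45 to 13.7 CPM (median 7.71) at EPS 0h and 15.5 to 54.6 CPM (median 28.2) at EPS 3h, with no overlap between the groups, and its log2 fold change was 6.64 ± 0.42 (SE, FDR = 3.9e-15) at EPS 3h. Rps15 itself changed by -0.01 ± 0.16 (SE, FDR = 0.95). The ratio to the parent rose by 5.24 on the log2 scale between Rest and EPS 3h. Gm5781 also reached 1 CPM in no Rest control library, so these values too describe the size of the rise only.

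Gm7002, a copy of the cytosolic chaperone gene Hsp90ab1 at 87.5% identity, had 0 to 2 counts per library at Rest and 48 to 116 at EPS 3h, or 2.38 to 7.07 CPM (median 4.05). Its log2 fold change at EPS 3h was 6.60 ± 0.45 (SE, FDR = 1.7e-14), and that of Hsp90ab1 was 0.79 ± 0.08 (SE, FDR = 5.4e-10). Gm13932, a copy of Hmgb1, which encodes a DNA-bending chromatin protein, ranged over 0.0502 to 0.230 CPM (median 0.107) at Rest, 0.972 to 3.03 CPM (median 2.41) at EPS 0h and 5.86 to 12.4 CPM (median 9.12) at EPS 3h. It rose by 6.17 ± 0.31 (SE, FDR = 1.0e-17), while Hmgb1 changed by -0.06 ± 0.10 (SE, FDR = 0.64). Gm7912, a diverged copy of Cab39l at 83.4% identity, held 2 counts over all 6 Rest control libraries and 395 over the 6 EPS 3h control libraries, a ratio per count of 222 with a 95% exact counting interval of 61.05 to 1839.5, and the Rest and EPS 3h groups did not overlap. In all 3 the Rest libraries lay below every stimulated library. None of the 3 reached 1 CPM in a Rest control library, so the level filter selected them for higher levels in other groups. Their FDRs, the interval and the lack of overlap describe the size of the rises only.

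**Figure D2:**
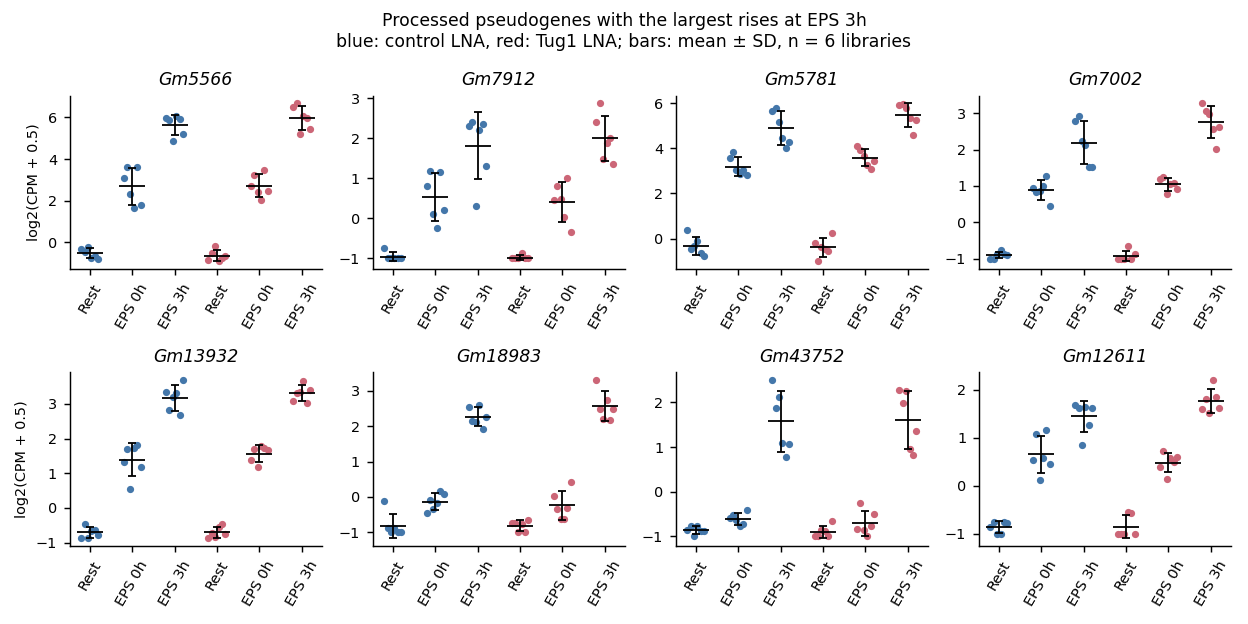
Levels of the 8 pseudogenes with the largest called rises at EPS 3h in control myotubes, as log2(CPM + 0.5) per library. Points are libraries (blue for control LNA, red for Tug1 LNA), and bars give the mean and SD of n = 6. Every Rest group sits near the floor of the scale, and the EPS 3h groups of both LNAs lie above their Rest groups in all 8 panels.

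The other largest rises at EPS 3h were Gm18983 (5.70), Gm43752 (5.51) and Gm12611 (5.24) as log2 fold changes. Gm18983 has no parent by sequence and lies in an intron of Eif1ad8, Gm43752 is a copy of Gapdh, which changed by 0.08, and Gm12611 is a copy of the serine synthesis gene Psat1, which changed by 0.20. At EPS 0h the named rises also included Gm19178, which lies on the other strand of Chordc1, a gene for a chaperone-binding protein. Gm19178 ranged over 0.471 to 1.22 CPM (median 0.915) at Rest and 3.55 to 20.7 CPM (median 12.6) at EPS 0h and changed by 3.76 ± 0.51 (SE, FDR = 3.2e-07), while Chordc1 changed by 0.91. Gm6030, a copy of Rps24, changed by 2.96, Stambp-ps1 by 1.70 and Gm11517, a copy of Gm11808, by 1.67. Gm6030 was also below 1 CPM in Rest control, and its value describes the size of the rise only.

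Falls were fewer and smaller. Gm38158, which matches Hmga2, the gene of a chromatin protein of proliferating cells, and lies in an intron of Sdccag8, ranged over 6.47 to 10.4 CPM (median 8.56) at Rest, 0.972 to 4.27 CPM (median 1.83) at EPS 0h and 0.670 to 2.58 CPM (median 1.43) at EPS 3h. Both EPS groups lay below Rest without overlap, and it changed by -1.87 ± 0.34 (SE, FDR = 4.9e-05) at EPS 0h and -2.40 ± 0.36 (SE, FDR = 7.3e-07) at EPS 3h, and neither Hmga2 (0.01 at EPS 3h) nor Sdccag8 (0.03) was called. Gstp-ps, a copy of a glutathione S-transferase gene in the Traf5 locus, went from 3.596 to 4.505 CPM (median 4.16) to 1.296 to 3.05 CPM (median 1.87) at EPS 0h, a change of -1.05 ± 0.25 (SE, FDR = 0.00093), and its closest match Gstp2 changed by -1.10 ± 0.28 (SE, FDR = 0.0022). Rpl15-ps2 went from 11.3 to 23.2 CPM (median 12.3) to 5.15 to 11.2 CPM (median 9.62) and changed by -0.74 ± 0.27 (SE, FDR = 0.025), while Rpl15, of the large ribosomal subunit, changed by 0.03. The other named falls were Gm16184 (-1.59), Gm19221 (-1.53), Gm6618 (-1.0002), Gm5540 (-0.74) and Gm13577 (-0.72) at EPS 0h and Rps19-ps3 (-1.23), Ctdsp2-ps (-0.49) and AA414768 (-0.38) at EPS 3h.

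Grouped by parent, the copies of chaperone genes rose most often. Of 9 members, 7 rose at EPS 0h and 8 at EPS 3h, none fell, and the median log2 fold change at EPS 3h was 1.31 (all tested genes 26.1% higher, median -0.02). Hspd1-ps3, a copy of the mitochondrial chaperonin gene Hspd1, ranged over 1.91 to 4.11 CPM (median 2.97) at Rest, 8.51 to 11.7 CPM (median 9.18) at EPS 0h and 13.5 to 23.6 CPM (median 19.4) at EPS 3h and rose by 2.63 ± 0.18 (SE, FDR = 1.5e-14), and Hspd1 rose by 2.59 ± 0.12 (SE, FDR = 1.2e-18). Gm5844 rose by 1.72 and its parent Hsp90aa1 by 1.97. The copies of Dnaja1, Gm7816 and Gm15542, rose by 1.31 and 1.25, and Dnaja1 by 1.18. Gm15459 rose by 0.80 ± 0.09 (SE, FDR = 2.1e-09) and Gm8355 by 0.83, next to 0.84 for their parent Hspa8. Hsp25-ps1, a copy of the small heat shock protein gene Hspb1, ranged over 0.466 to 3.66 CPM (median 1.36) at Rest and 1.42 to 11.9 CPM (median 4.07) at EPS 3h, and these groups overlapped although the test called a rise of 1.85 ± 0.66 (SE, FDR = 0.019). Gm10123 copies the prolyl isomerase gene Ppia and changed by 0.05 ± 0.15 (SE, FDR = 0.80). The remaining member is Gm7002, the copy of Hsp90ab1 described above, which is counted among the rises. It reached 1 CPM in no Rest control library, so the level filter selected it for a rise. Gm5844, Gm7816, Gm15542 and Gm8355 were named after their values were seen, to account for every member of the group.

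Copies of ribosomal protein genes were the largest group. At EPS 3h 20 of 79 rose and 3 fell, with a median of 0.30, and at EPS 0h 16 rose and 3 fell. Both shares of rises, 25.3% at EPS 3h and 20.3% at EPS 0h, were near those of all tested genes (26.1% and 20.5%). The largest rises at EPS 3h were those of Gm5781 (6.64) and Gm43726 (4.59; named after its value was seen), then Rpsa-ps9 (3.97) and Rpl36-ps2 (3.33). Their parents Rps15, Rpl7a, Rpsa and Rpl36 changed by -0.01, 0.10, 0.31 and 0.13. The rises of this group include members that passed the level filter through the stimulated libraries, such as Gm5781. Rpsa-ps9 reached 1 CPM in 13 of 36 libraries, at a mean of 0.866 CPM. Such rises, also beside the change of the parent, describe their size only. The abundant Gm15772 and Rps3a3 changed by 0.42 ± 0.19 (SE, FDR = 0.059) and 0.40 ± 0.19 (SE, FDR = 0.080). Of the 8 copies of translation factor genes 4 rose at EPS 3h, of the 11 of cytoskeletal genes 3, of the 9 of high-mobility-group genes 3 with 1 fall, of the 4 of glycolytic genes 1, of the 5 of ubiquitin and proteasome genes 1, and of the 6 of respiratory chain genes and the 7 of RNA-binding protein genes 0 rose and 0 fell. Over all tested genes 26.1% rose and 25.9% fell, and in groups this small these counts are descriptions only. Mylf-ps, which copies a subunit of the sarcomeric motor, went from 304 to 449 CPM (median 398) at Rest to 401 to 853 CPM (median 512) at EPS 3h and was called with overlapping groups, at 0.52 ± 0.18 (SE, FDR = 0.013), while Myl1 changed by 0.22 ± 0.16 (SE, FDR = 0.28). Gm13394 changed by -0.02 ± 0.22 (SE, FDR = 0.95) and Gapdh by 0.08, and neither was called.

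Next, each member was set beside its parent. Of the 69 pairs that a name gives, 47 members had the sign of the parent at EPS 0h (68.1%) and 52 at EPS 3h (75.4%). Where both were called at EPS 3h, the direction was the same in 14 of 14. The median difference between member and parent was 0.04 log2 units at EPS 3h, and across these pairs Pearson's r of the log2 fold changes was 0.41 and Spearman's rho 0.61. Among these, Ptges3-ps changed by 0.88 and the co-chaperone gene Ptges3 by 1.06, Actr3-ps by 0.58 and the actin nucleation gene Actr3 by 0.68, and Ctdsp2-ps by -0.49 and Ctdsp2 by -0.54. Stambp-ps1 changed by 2.21 beside 0.20 for Stambp, which encodes a deubiquitinase, and Rps19-ps3 by -1.23 beside 0.08 for Rps19. The counts and correlations are descriptions across genes, which share libraries and in part reads and parents. With the parent taken from the sequence, 184 of 248 pairs had the same sign at EPS 3h (r = 0.30, rho = 0.48). Of 81 members that rose, the parent rose in 38, fell in 2 and was not called in 41.

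The likeness to the parent went with sequence identity. Of the 111 pairs with at least 99% identity, 103 differed by less than 0.5 log2 units at EPS 3h, and the correlation was highest there (r = 0.76). Of the 90 pairs of 95 to 99% identity 65 differed by less than 0.5 (r = 0.42), and of the 47 pairs under 95% 9 did (r = 0.24). The median member exceeded its parent by 0.02, 0.10 and 1.15 log2 units in the 3 classes. Rises were called in 25 of 113, 29 of 92 and 30 of 53 members (all tested genes 26.1%). The classes differ in how many members passed the level filter through the stimulated libraries, which fixed a rise: with at least 1 CPM in at least 4 of the 12 Rest libraries, 112, 75 and 32 members were left, a restriction chosen after the data were seen. Among these the median differences to the parent were 0.02, 0.02 and 0.19, and 24, 15 and 10 members rose. All tested genes were not restricted in this way, so these counts have no matching share beside them. A difference of less than 0.5 was left in 102 of 110, 63 of 75 and 9 of 28 pairs. The part of reads shared between near-identical copies in this pattern was not tested.

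**Figure D3:**
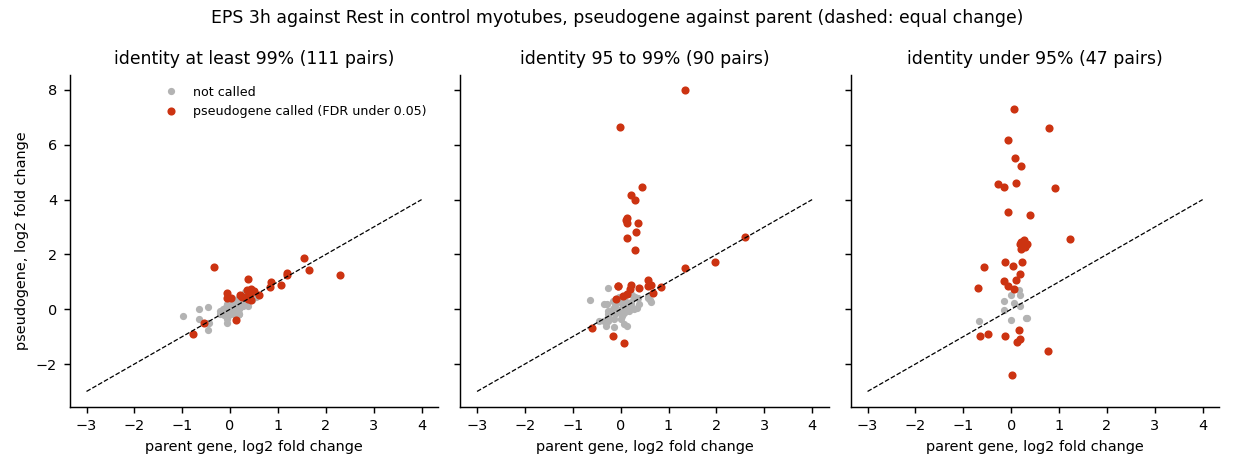
Log2 fold change of each pseudogene (vertical) against that of its parent by sequence (horizontal) at EPS 3h against Rest in control myotubes, in 3 panels by identity. Points are pairs, red where the pseudogene was called, and the dashed line marks equal change. Most points keep close to the line in the left panel, and in the right panel the pseudogenes spread vertically from -2.40 to 7.30 over a narrower range of their parents.

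The ratio to the parent per library is given for the named members as a description, since they were picked for their change in the same libraries. Gstp-ps and Gstp2 differed between EPS 0h and Rest by 0.14 in mean log2 ratio and Ctdsp2-ps and its parent, the phosphatase gene Ctdsp2, differed between EPS 3h and Rest by 0.05. In the pair of Gm38158 and Hmga2 the difference was -2.01 at EPS 0h and -2.20 at EPS 3h.

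The position in the genome was described as well, from the GENCODE M39 annotation of GRCm39. 248 of 266 members have 1 annotated exon. 51 lie inside another gene on the same strand, 38 of them in an intron, 62 overlap a gene on the other strand only, and 153 overlap no other gene. The 26 members in introns of a tested gene had the sign of that gene in 18 cases at EPS 3h (r = -0.08), the 8 that touch an exon in 5 (r = 0.71), and the 42 with a tested gene on the other strand in 24 (r = 0.22). A tested gene ended within 10 kb upstream on the same strand for 16 members, a description chosen after the data were seen. It was 8 of the 87 that rose at EPS 3h, and that neighbour rose in 5 and fell in 0 of these. Among the 163 members not called it was 7, of which the neighbour rose in 1 and fell in 4. Over all tested genes 26.1% rose and 25.9% fell at EPS 3h. Gm8696, a copy of the splicing protein gene Snu13 singled out for its position, starts 1724 bases downstream of the stress chaperone gene Hspa1b. It ranged over 0.0469 to 0.261 CPM (median 0.133) at Rest and 1.69 to 4.94 CPM (median 3.28) at EPS 3h and rose by 4.44 ± 0.43 (SE, FDR = 8.6e-11), and Hspa1b changed by 3.22. Gm7912 lies 7411 bases downstream of the matrix metalloproteinase gene Mmp25, which changed by 6.07. Gm8696 and Gm7912 reached 1 CPM in no Rest control library, so the level filter selected them for a rise. Any part of a neighbour in the changes of the members was not tested.

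The same EPS comparison was made in Tug1 KD myotubes. At EPS 0h 60 members rose (22.6%; all tested genes 24.4%) and 19 fell (7.14%; all tested genes 21.2%). With the replicate number as a block 72 rose (all tested genes 27.9%) and 31 fell (all tested genes 29%). At EPS 3h 74 rose (27.8%; all tested genes 26.2%) and 13 fell (4.89%; all tested genes 25.9%). The rises at both times include members that passed the level filter through the stimulated libraries. Of the members that rose at EPS 3h, 67 did so with both LNAs, 77.01% of those called in control and 90.5% of those called in Tug1 KD, and 9 fell with both. No such overlap over all tested genes is given here, so it is not shown to be particular to the members. The 67 include members selected by the level filter for a rise. Gm5566 reached 36.6 to 101.4 CPM (median 64.8) at EPS 3h in Tug1 KD and rose by 8.78 ± 0.49 (SE, FDR = 1.5e-16), and Gm5781 reached 23.6 to 60.9 CPM (median 47.1) and rose by 7.28 ± 0.43 (SE, FDR = 4.2e-16). The interaction of knockdown and EPS, which tests whether the EPS change differed between the LNAs, was called for 0 of 266 members at EPS 0h and 0 at EPS 3h by edgeR, and over all tested genes for 0% at EPS 0h and, as 1 gene that was higher, 0.00715% at EPS 3h. At an unadjusted p under 0.05, 4 members were higher and 2 lower at EPS 0h, with 4 higher and 2 lower at EPS 3h. DESeq2 and limma-voom also called 0 at both times.

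**Figure D4:**
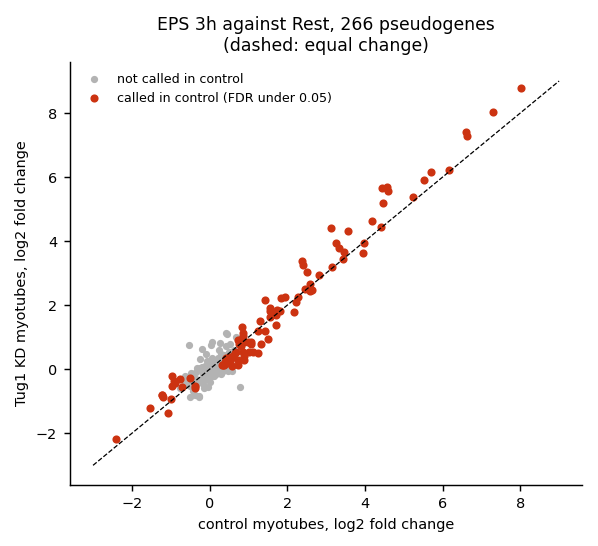
Log2 fold change of EPS 3h against Rest for the 266 pseudogenes in control (horizontal) and Tug1 KD myotubes (vertical). Points are pseudogenes, red where called in control, and the dashed line marks equal change. The members with large rises in control lie near the line, Gm5566 at 8.01 and 8.78.

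During the recovery from EPS 0h to EPS 3h, 36 members rose in control myotubes (13.5%; all tested genes 9.67%) and 3 fell (1.13%; all tested genes 6.88%), whatever their change at EPS 0h. The rises include members that passed the level filter through the stimulated libraries, such as Gm13932. Scaled by library size alone, 33 rose (all tested genes 7.34%) and 8 fell (all tested genes 12.6%). Gm13932 rose by 1.97 ± 0.21 (SE, FDR = 1.9e-08) and Hspd1-ps3 by 1.01 ± 0.16 (SE, FDR = 2.0e-05) in this interval, whereas Gm11517, which had risen by 1.67 ± 0.22 (SE, FDR = 1.6e-07) at EPS 0h, changed by -0.11 ± 0.21 (SE, FDR = 0.82). Gm11517 ranged over 3.33 to 9.13 CPM (median 5.33) at Rest, 13.8 to 20.03 CPM (median 17.8) at EPS 0h and 13.2 to 19.1 CPM (median 16.6) at EPS 3h, and both EPS groups lay above Rest without overlap.

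The last comparison asks which pseudogenes changed with the knockdown. Against control, 3 members were higher (1.13%; all tested genes 5.54%) and 4 lower (1.504%; all tested genes 4.47%) at Rest, 7 higher (2.63%; all tested genes 8.25%) and 2 lower (0.752%; all tested genes 6.07%) at EPS 0h, and 3 higher (1.13%; all tested genes 6.38%) and 4 lower (1.504%; all tested genes 5.11%) at EPS 3h. Other tested genes under 2 CPM were called higher in 2.04% and lower in 4.98% at Rest. With the replicate number as a block, 12 members were higher (all tested genes 13.1%) and 5 lower (all tested genes 11.2%) at EPS 0h, with 8 higher (all tested genes 10.8%) and 10 lower (all tested genes 9.75%) at EPS 3h.

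AA414768, a member on the X chromosome whose closest match is E330021D16Rik at 82.4% identity, was lower in Tug1 KD in every state. It ranged over 12.99 to 16.2 CPM (median 14.6) in Rest control and 8.14 to 11.8 CPM (median 9.77) in Rest Tug1 KD, which did not overlap, and changed by -0.56 ± 0.14 (SE, FDR = 0.0049) at Rest, -0.40 ± 0.14 (SE, FDR = 0.044) at EPS 0h and -0.76 ± 0.14 (SE, FDR = 0.00026) at EPS 3h. Gm11868, which matches Cyb5r4, the gene of a cytochrome b5 reductase, ranged over 2.44 to 3.34 CPM (median 3.01) in Rest control and 4.91 to 6.23 CPM (median 5.47) in Rest Tug1 KD and was higher by 0.89 ± 0.19 (SE, FDR = 0.0013), also without overlap. Cyb5r4 was higher by 0.58 ± 0.14 (SE, FDR = 0.0035), and the mean log2 ratio of the pair differed by 0.23.

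Vcp-rs, a copy of Vcp, the gene of an ATPase that extracts ubiquitinated proteins, was higher in Tug1 KD by 0.56 ± 0.16 (SE, FDR = 0.019) at Rest, from 2.36 to 3.899 CPM (median 2.71) to 3.66 to 4.66 CPM (median 4.21), and by 0.75 ± 0.16 (SE, FDR = 0.0010) at EPS 0h. Vcp was higher by 0.65 ± 0.07 (SE, FDR = 2.2e-08) at Rest. Gstp-ps was lower in Tug1 KD at Rest and changed by -0.92 ± 0.25 (SE, FDR = 0.011), with 3.596 to 4.505 CPM (median 4.16) in control and 1.64 to 2.79 CPM (median 1.95) in Tug1 KD, and Gstp2 changed by -0.57 ± 0.28 (SE, FDR = 0.23). Gm9300, a copy of Ran, the gene of a nuclear transport GTPase, was higher by 0.92 ± 0.24 (SE, FDR = 0.0081) at EPS 3h, with 1.84 to 3.23 CPM (median 2.43) in control and 3.57 to 6.25 CPM (median 4.38) in Tug1 KD, and Ran changed by -0.17. Gm5738, which stayed under 2 CPM on average in every group and was singled out after its values were seen, was higher by 1.21 ± 0.26 (SE, FDR = 0.0013) at Rest, 1.24 ± 0.27 (SE, FDR = 0.0012) at EPS 0h and 1.19 ± 0.27 (SE, FDR = 0.0028) at EPS 3h, from 0.551 to 1.15 CPM (median 0.803) to 1.55 to 2.64 CPM (median 1.94) at Rest. The other named calls were Gm18095 (0.80) and Gm14026 (0.69) at EPS 0h and Gm5814 (0.71), Gm4734 (-0.49) and Rnps1-ps (-0.28) at EPS 3h.

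**Figure D5:**
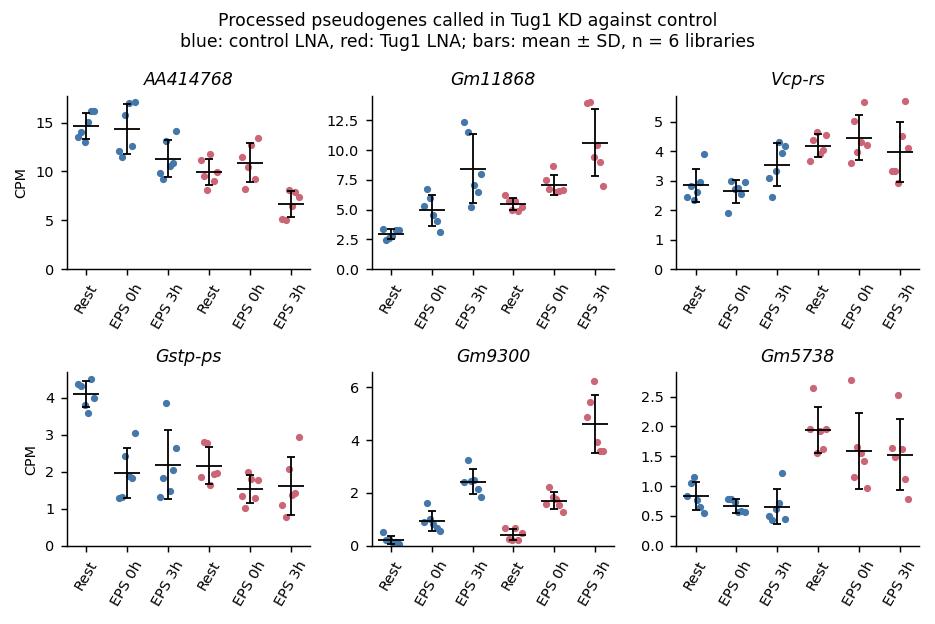
Levels in CPM per library of 6 pseudogenes called in Tug1 KD against control in at least 1 state. Points are libraries (blue for control LNA, red for Tug1 LNA), and bars give the mean and SD of n = 6. AA414768 lies lower in red than in blue in each state, and Gm5738 lies higher.

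A stricter threshold, an FDR under 0.01 with a change beyond 1 on the log2 scale, called more rises than falls in each EPS comparison. In control myotubes it called 40 members higher (all tested genes 6.23%) and 6 lower (all tested genes 2.2%) at EPS 0h, 51 members higher (all tested genes 9.62%) and 6 lower (all tested genes 4.72%) at EPS 3h and 20 members higher (all tested genes 3.47%) and 0 lower (all tested genes 0.343%) between those times. In Tug1 KD it called 47 members higher (all tested genes 8.15%) and 2 lower (all tested genes 2.5%) at EPS 0h and 50 members higher (all tested genes 11%) and 3 lower (all tested genes 4.49%) at EPS 3h. For the knockdown against control it called 1 members higher (all tested genes 0.443%) and 1 lower (all tested genes 0.622%) at Rest, 1 members higher (all tested genes 0.665%) and 0 lower (all tested genes 0.557%) at EPS 0h and 1 members higher (all tested genes 0.372%) and 0 lower (all tested genes 0.414%) at EPS 3h. The rises in the EPS comparisons include members that passed the level filter through the stimulated libraries, for which a rise was fixed.

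Of the 69 pairs with a parent by name, 48 members had the sign of the parent in Tug1 KD against control at Rest (r = 0.47, rho = 0.46 across pairs), and the median difference was 0.01. By sequence the sign was shared in 83 of 111 pairs with at least 99% identity and in 20 of 47 under 95%. At the level filter, the 12th highest library stood at 1.04 CPM for Rpsa-ps9, 1.04 for Gm10167 and 1.04 for Gm12247, the members just inside, and at 0.999 for Gm7285, 0.991 for Rpl23a-ps3 and 0.979 for Csnk2a1-ps3, just outside.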

How the data were processed

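C2C12 myotubes were measured by poly-A selected, strand-marking RNA-seq with paired reads of 150 bases. Per the labels and methods, the authors trimmed reads with fastp 0.14.1 and aligned them with STAR 2.5 to GRCm39, and deposited whole-number counts per gene and library, which are not normalized. The counting tool, its strand setting and its treatment of reads that match several places are not given in the sources used here. Each library's own file and its column in the table of all libraries held the same counts. Depth was 17005079 to 24181167 counts per library, and intervals cover counting error only.

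From these counts, CPM on library totals were used for the level filter and the level classes, such as under 2 CPM. Shares of counts also used library totals. The levels and ranges of single genes are CPM on library totals multiplied by the TMM factors. The 13995 genes with at least 1 CPM in at least 12 libraries were fitted with edgeR 4.0.16 (R 4.3.3; TMM factors, robust quasi-likelihood test, 1 fit of the 6 groups, no block), with Benjamini-Hochberg FDR under 0.05 over all of them as the call. Members are the rows with the processed pseudogene biotype among these. Parents were read from the name, where removing the -ps or -rs ending left the symbol of a gene, or taken as the best blastn 2.17.0 match among protein-coding transcripts of GENCODE M39 (GRCm39) covering at least 50% of the member. This match also had to hold at least 100 aligned bases. The members and lists were chosen with earlier results of these data known. Named members were the 8 largest rises and falls per EPS time in control and the 5 largest per knockdown comparison with a mean of at least 2 CPM in the higher group, the 8 highest levels, members with a parent by name, 3 on each side of the level filter, and their parents and hosts. Ratios to the parent, as log2(CPM + 0.5) differences, are given as descriptions, since the members were picked for their change in the same libraries. Scripts were tested on simulated data.

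Same-numbered libraries deviated together in all 6 pairs (correlation over 0.1) for EPS 0h and EPS 3h against Rest in control (lowest 0.228 and 0.127), EPS 0h against Rest in Tug1 KD (lowest 0.165) and Tug1 KD against control at EPS 0h and EPS 3h (lowest 0.626 and 0.217). This pairing comes from the data, since the labels give only the numbers. The alternatives tried were DESeq2 1.42.0, limma-voom 3.58.1, other scalings and filters, a replicate block, a term for replicates 1 to 3 against 4 to 6, each of these sets alone, and a stricter threshold. Results for some marker and host genes are not reported here.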

Additional observations from a re-analysis of the deposited data

Results flagged for a closer look

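Among 138 groups of 6 libraries looked at, 5 held a library whose gap to its neighbour was above Dixon's 95% critical value as a share of the group's range, and chance alone gives about 1 in 20 groups. The share of counts on the pseudogenes was 0.454% in EPS 0h control replicate 1, and the next library stood at 0.478%. Gm7002 stood at 0.141 CPM in Rest Tug1 KD replicate 4, beside 0.0446 CPM in the next library. Gm7912 stood at 0.104 CPM in Rest control replicate 1 and at 0.0469 CPM in Rest Tug1 KD replicate 4, and the other 5 libraries of each group held 0 counts. Gm5738 stood at 2.64 CPM in Rest Tug1 KD replicate 2, beside 1.96 CPM in the next library.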

How the results depend on the processing

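Near-identical copies, low counts and the filter limit these results: 120 of 266 members were under 2 CPM, and how reads shared with a parent were counted is not given in the sources used here. The 45 named calls kept their direction in all 450 alternative values and their call in 415, and 35 lost it, 9 without a filter, 11 with replicates 1 to 3 alone, 13 with replicates 4 to 6 alone, 1 with at least 10 counts in 12 libraries and 1 with limma-voom. Except where a construction is named, the cause of a difference was not tested.

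Counts below are of members called, and medians are of log2 fold changes. A stricter threshold, FDR under 0.01 with a log2 fold change beyond 1, gave 40 higher and 6 lower at EPS 0h, 51 and 6 at EPS 3h and 20 and 0 for EPS 3h against EPS 0h in control, 2 and 3 lower at these times in Tug1 KD, and for Tug1 KD against control 1 higher and 1 lower at Rest, 1 and 0 at EPS 0h, with 1 higher and 0 lower at EPS 3h. The shares over all tested genes at this threshold are given above. Fewer members, by construction, gave fewer calls, and no share over all tested genes was computed under the restrictions that follow. Members with at least 1 CPM in 4 of 12 Rest libraries (chosen after seeing the data) gave 32, 49 and 16 higher at EPS 0h, EPS 3h and between them in control, 27 and 38 higher in Tug1 KD, and 1 higher in Tug1 KD against control at EPS 3h. Members with a mean of at least 2 CPM (chosen after seeing the data) gave 35 higher and 6 lower at EPS 0h, 47 and 5 at EPS 3h and 18 and 1 between them in control, 29 and 7 at EPS 0h, with 35 higher and 5 lower at EPS 3h, in Tug1 KD, and for Tug1 KD against control 2 and 1 at EPS 0h and 0 higher at EPS 3h.

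Library size alone gave medians of 0.065 at EPS 0h, 0.088 at EPS 3h and 0.050 between them in control and of 0.0038 and -0.028 in Tug1 KD, with 26, 8 and 22 lower (all tested genes 39.6%, 12.6% and 40.8%) at EPS 3h in control, between EPS 0h and EPS 3h, and at EPS 3h in Tug1 KD. Upper quartile factors gave a median of -0.087 for Tug1 KD at EPS 0h. DESeq2 called 5 (all tested genes 7.91%) and a minimum of 10 counts called 6 lower (all tested genes 8.6%) between EPS 0h and EPS 3h, and limma-voom called 5 higher (all tested genes 6.38%) for Tug1 KD at EPS 3h. Without a filter the medians were 0.17 and -0.0088 at EPS 3h in control and Tug1 KD, and Tug1 KD against control had 2 higher (all tested genes 2.01%) and 0 lower (all tested genes 1.25%) at EPS 0h and 1 lower (all tested genes 1.05%) at EPS 3h.

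The replicate block gave 11 lower (all tested genes 11.9%) between EPS 0h and EPS 3h in control, 31 lower (all tested genes 29%) at EPS 0h in Tug1 KD, and for Tug1 KD against control 6 higher (all tested genes 9.1%) at Rest, 12 higher (all tested genes 13.1%) and 5 lower (all tested genes 11.2%) at EPS 0h, with 8 higher (all tested genes 10.8%) and 10 lower (all tested genes 9.75%) at EPS 3h. It moved no other count by over 1.5 times. Same-numbered libraries correlated above 0.1 in 5 of 6 pairs for EPS 3h against EPS 0h, for EPS 3h in Tug1 KD and for the knockdown at Rest, so the numbers were not taken to pair those samples. A term for the replicate set gave 9 lower (all tested genes 10.9%) between EPS 0h and EPS 3h, 30 lower (all tested genes 27.9%) at EPS 0h in Tug1 KD, and 5 higher (all tested genes 8.75%) at Rest, 4 lower (all tested genes 10.4%) at EPS 0h and 6 higher (all tested genes 9.83%) and 8 lower (all tested genes 8.82%) at EPS 3h for the knockdown. Replicates 1 to 3 alone gave 24 and 32 lower at EPS 0h in control and Tug1 KD (all tested genes 20.05% and 26.5%), medians of 0.39 at EPS 3h, 0.32 between EPS 0h and EPS 3h and 0.094 for the knockdown at Rest (-0.10 in replicates 4 to 6), and 2 higher (all tested genes 4.19%) and 0 lower (all tested genes 2.53%) for the knockdown at EPS 0h. Replicates 4 to 6 alone gave 6 lower at EPS 0h in both (all tested genes 13.7% and 12.6%), 1 lower (all tested genes 5.19%) between EPS 0h and EPS 3h, medians of 0.063, 0.099 and 0.059 for EPS 0h, EPS 3h and between them, 6 higher (all tested genes 9.22%) and 8 lower (all tested genes 6.9%) at Rest, 0 lower (all tested genes 6.44%) at EPS 0h and 7 higher (all tested genes 6.15%) at EPS 3h for the knockdown, and a median of 0.091 for the interaction at EPS 3h (-0.11 in replicates 1 to 3).

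Pairs with at least 99% identity had a median difference to the parent of -0.0062 at EPS 0h, and pairs under 95% had 0.96 at EPS 0h and 1.15 at EPS 3h, with the sign shared in 61.7% at EPS 3h and 42.6% for the knockdown at Rest. These identity classes were chosen after seeing the data. Restricted to members with at least 1 CPM in 4 of 12 Rest libraries, the median difference was -0.015 at EPS 0h in pairs with at least 99% identity, and pairs under 95% had 0.17 at EPS 0h and 0.19 at EPS 3h, with the sign shared in 50% at EPS 0h, 60.7% at EPS 3h and 39.3% for the knockdown at Rest.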

Other observations

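Gm5526, a copy of Myl6, which encodes a myosin light chain of non-muscle and smooth muscle cells, fell and then rose in mean, and was chosen after its values were seen. Its mean in control myotubes was 7.37 ± 0.944 CPM at Rest, 5.21 ± 0.793 CPM at EPS 0h and 21.7 ± 10.8 CPM at EPS 3h (SD, n = 6). By edgeR's quasi-likelihood test the log2 fold change was -0.50 ± 0.27 (SE, FDR = 0.14) at EPS 0h and 1.56 ± 0.26 (SE, FDR = 6.0e-06) at EPS 3h, where Myl6 changed by -0.33 ± 0.16 (SE, FDR = 0.082). The member is 99.3% identical to Myl6, and which of the copies the reads came from cannot be told apart in these counts.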
